A study of Mus musculus with 6 samples.

Results

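Slp proteins, also called synaptotagmin-like proteins, are Rab27 effectors: they bind the active, GTP-loaded form of the small GTPase Rab27 on a vesicle with a domain at one end and membrane lipids with a pair of C2 domains at the other, and so tether secretory vesicles and granules to the plasma membrane. Slac2 proteins are Rab27 effectors that link vesicles to myosin motors and actin, and Munc13-4 is a Rab27 effector that prepares docked granules for fusion. In the adrenal gland, regulated granule release is best known from the chromaffin cells of the medulla, whereas steroids of the cortex leave cells without being stored in granules. The genes described here are the 5 Slp genes Sytl1 to Sytl5, the Rab27 genes Rab27a and Rab27b, the Slac2 genes Myrip and Exph5, and the Munc13-4 gene Unc13d. They were taken by gene symbol from the platform annotation of the array, and each of the 10 genes had 1 probe set, so that they make up 10 of the 19505 genes named on it.

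RNA was measured on whole-transcript arrays, 1 array per animal, in whole adrenal glands of female mice aged 2 months. Mutant mice (n = 3) were Mst1flox/flox;Mst2flox/flox;Nr5a1-cre, and control mice (n = 3) were Mst1flox/flox;Mst2flox/flox, so both groups carried the floxed alleles of the Hippo pathway kinase genes Mst1 and Mst2 and the mutants alone carried Cre. Nr5a1 is a gene of steroid-producing cells, and cells of the medulla and the blood vessels are not its usual sites of expression. With no Cre-carrying control, an effect of the transgene and one of kinase loss cannot be told apart.

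Sytl5 was selected on its mutant and control values in these same arrays, where it was among the probe sets called higher, and the other 9 genes were added as its relatives by sequence or by binding to Rab27. Its difference between the groups is therefore given as a description: the SE, interval and call that stand beside it come from the fit that selected it and are no independent test. Signals are log2 values per probe set, and a level is not compared between genes because each probe set has its own response.

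Array facts bear on all values below. Median log2 signals of the 6 arrays ran from 6.76 to 6.83 over 22206 probe sets. Stk4, which encodes MST1, had log2 signals of 8.14, 8.36 and 8.46 in mutants and 8.32, 8.66 and 8.94 in controls, so the groups overlapped (limma adjusted p = 0.623). The position of its probes against the deleted exons is not known here, so Stk4 does not check the genotypes, and Stk3, which encodes MST2, was not analysed here. Defining cortex genes were bright: Star, the carrier that feeds cholesterol into steroid synthesis, had mean log2 signals of 18.40 ± 0.07 in mutants and 18.41 ± 0.03 in controls (SD, n = 3 each). The 23 background probe sets of the array spanned 2.53 to 7.32. Markers of melanocytes (5 of 5), kidney (6 of 6) and glia (2 of 2) lay within that span in every animal, as did 6 of 8 markers of T and NK lymphocytes and 4 of 6 of mast cells. These background probe sets differ in base composition, so their range is a guide to dim signals and not a detection limit for a given gene.

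Only Sytl5 and Rab27a, of the 10 genes, were above that background range in all 6 animals. Sytl2 was above it in 5 of 6 animals. The remaining 7 genes, Sytl1, Sytl3, Sytl4, Rab27b, Myrip, Exph5 and Unc13d, stayed within it in every animal, and a difference in such a signal would be compressed towards 0. No probe set was removed for low signal, so all 10 genes were tested in the fit over the whole array.

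Sytl5, the Slp family member encoding Slp5, was higher in mutant glands. Its log2 signals were 11.82, 11.91 and 11.57 in mutants 1 to 3 and 10.38, 10.06 and 10.13 in controls 1 to 3. The lowest mutant lay 1.20 log2 units above the highest control, whereas the animals ranged over 0.34 units within the mutants and 0.32 within the controls. Group means were 11.77 ± 0.18 in mutants and 10.19 ± 0.17 in controls (SD, n = 3 each), a difference of 1.58 log2 units (limma SE 0.16, 95% interval 1.20 to 1.95), or 2.99-fold. Over the whole array, 44 probe sets (0.198%), Sytl5 included, had a change in log2 signal at least as large in the upward direction. Of the 10 genes, 1 was called higher at an adjusted p under 0.05, this being the value by which Sytl5 was chosen, where 0.0540% of all probe sets were called higher. None was called lower in the limma fit, where 0.0180% of all probe sets were, and 0 of the 10 were lower at an unadjusted p under 0.05. The size of the Sytl5 difference changed little with single animals, but the call that selected it did: it was lost without control 1 (difference 1.67), control 2 (1.51), control 3 (1.55), mutant 1 (1.55) or mutant 2 (1.51), and kept without mutant 3 (1.68).

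**Figure D1:**
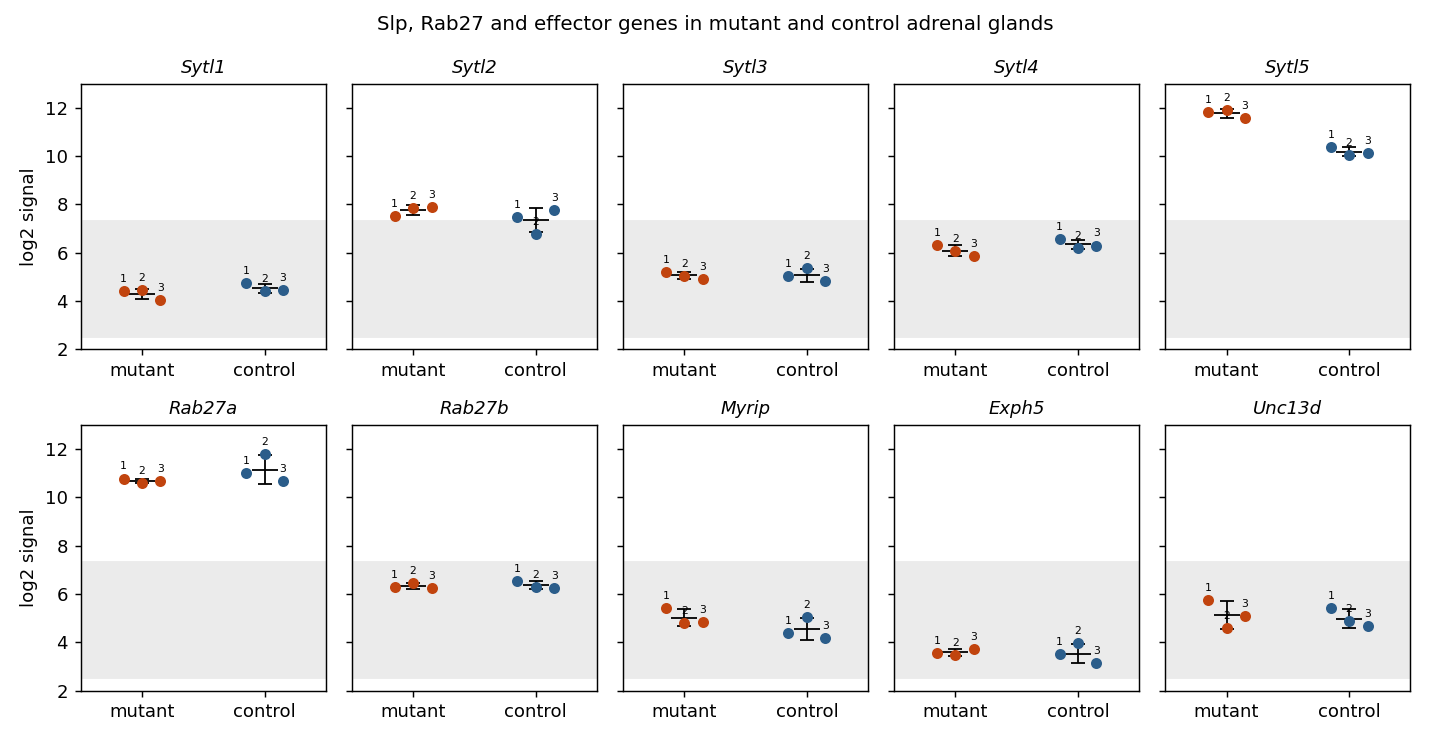
Log2 signal (vertical axis) of the 10 genes in mutant (orange, left) and control (blue, right) glands, with each animal as a numbered point, the group mean as a bar and the SD as whiskers; the grey band, 2.53 to 7.32, spans the background probe sets. The groups are apart for Sytl5, whose mutants lie at 11.57 to 11.91 and controls at 10.06 to 10.38, and they overlap for each of the other 9 genes.

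Markers of cell types in and around the gland came from 12 lists with 80 measured genes. The limma fit called 0 of the 80 at an adjusted p under 0.05, where 0.0721% of all probe sets were called. Of the 80, 13 had an unadjusted p under 0.05, a larger share than the 10.4% of all probe sets. Over the whole array the groups did not overlap for 16.4% of single probe sets. Of 8 endothelial markers 7 were higher in mutants, and their mean log2 signal per animal ran from 12.59 to 12.72 in mutants and from 12.16 to 12.41 in controls, so the groups did not overlap. The difference in the list mean was 0.38 log2 units, and the single markers changed by -0.05 to 0.60. For Pecam1, an adhesion molecule of endothelial cells, the log2 change was 0.49 (SE 0.15, limma adjusted p = 0.312). The 4 measured platelet markers, 2 of them within the background range, had means of 6.10 to 6.18 in mutants and 5.90 to 5.93 in controls. Those of 6 fibroblast markers ran from 10.83 to 11.80 in mutants and from 10.42 to 10.96 in controls, and those of 6 macrophage and granulocyte markers, 2 of them within the background range, from 7.89 to 8.06 in mutants and from 7.58 to 7.87 in controls. The groups thus did not overlap in the platelet and macrophage lists either, and did in the fibroblast list. Ptprc, the surface phosphatase of leukocytes, measured 8.60 ± 0.18 in mutants and 8.26 ± 0.24 in controls (SD, n = 3 each). Cortex list means overlapped, at 17.92 to 18.09 in mutants and 18.05 to 18.12 in controls over 9 genes, of which 2 were higher in mutants. Fat markers varied most, from 10.37 to 12.94 in mutants and from 9.36 to 11.72 in controls over 10 genes, and Adipoq, the adipocyte hormone adiponectin, had an SD of 2.41 in mutants and 2.37 in controls. The part of these cell types in the Sytl5 difference was not tested. As covariates, the adipocyte list gave a Sytl5 difference of 1.59 log2 units and the chromaffin list one of 1.52. The call that selected Sytl5 was lost in both fits, and no other list was used as a covariate. Both of these lists overlapped between the groups, so the fits say nothing on the lists whose groups were apart. Glands were measured whole, and a change in the share of a cell type cannot be told apart from a change in RNA per cell.

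The paralogs of Sytl5 showed no such separation. Sytl1, whose protein Slp1 (JFC1) acts in granule release in blood cells, had log2 signals of 4.40, 4.45 and 4.06 in mutants and 4.75, 4.42 and 4.44 in controls. Mutant 2 was above both the lower controls, and the difference was -0.23 (95% interval -0.63 to 0.16, limma adjusted p = 0.709). Sytl2 encodes Slp2-a, which tethers Rab27a vesicles such as melanosomes to the plasma membrane. It measured 7.53, 7.86 and 7.90 in mutants and 7.49, 6.79 and 7.78 in controls, so that control 2 alone was low and the groups overlapped. The Sytl2 difference of 0.41 (95% interval -0.17 to 1.0, limma adjusted p = 0.639) shrank to 0.135 without control 2.

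Sytl3 and Sytl4 were dim in both groups. Sytl3, which encodes Slp3, measured 5.22, 5.04 and 4.93 in mutants and 5.02, 5.36 and 4.82 in controls, with a difference of -0.01 (95% interval -0.42 to 0.41, limma adjusted p = 0.995). Its animals were interleaved. Sytl4, whose protein granuphilin docks insulin granules in pancreatic beta cells, measured 6.31, 6.09 and 5.86 in mutants and 6.55, 6.19 and 6.30 in controls. Mutant 1 lay above controls 2 and 3, and the difference was -0.26 (95% interval -0.66 to 0.14, limma adjusted p = 0.676).

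Set against its paralogs within each animal, the Sytl5 signal was shifted upwards in every mutant. The Sytl5 log2 signal minus the mean log2 signal of Sytl1 to Sytl4 was 5.95, 6.05 and 5.88 in mutants and 4.42, 4.37 and 4.30 in controls, a difference between the groups of 1.60 log2 units. Only its change between groups has a meaning here, since the offset depends on the probe sets. The mean of the 4 paralogs itself was 5.80 ± 0.10 in mutants and 5.83 ± 0.13 in controls (SD, n = 3 each). Of the 4, Sytl1, Sytl3 and Sytl4 lay within the background range in every animal, where a difference would be compressed towards 0. With Sytl2 as the single paralog whose mean lay above the median level of the array, the difference was 1.16. Since Sytl5 was picked for its change, no test is attached to this contrast.

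Sytl5 and Sytl4 are both X-linked, and the sequences just before their start sites are shown. The first gene was selected on its rise, and the second, like the other relatives, was not called. They are the 250 bases upstream of the annotated start from RefSeq on GRCm38.p6, 5′ to 3′ on the strand of the gene, with capitals marking the core site of TEAD factors, the DNA-binding partners of YAP and TAZ (GGAATG, or CATTCC on the other strand).
Sytl5, chrX:9885371-9885620, plus strand: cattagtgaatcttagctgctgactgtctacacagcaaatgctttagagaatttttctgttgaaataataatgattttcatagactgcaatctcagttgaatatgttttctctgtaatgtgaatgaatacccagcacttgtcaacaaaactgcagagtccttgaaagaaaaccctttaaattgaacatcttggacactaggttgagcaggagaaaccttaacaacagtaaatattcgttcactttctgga
Sytl4, chrX:133981813-133982062, minus strand: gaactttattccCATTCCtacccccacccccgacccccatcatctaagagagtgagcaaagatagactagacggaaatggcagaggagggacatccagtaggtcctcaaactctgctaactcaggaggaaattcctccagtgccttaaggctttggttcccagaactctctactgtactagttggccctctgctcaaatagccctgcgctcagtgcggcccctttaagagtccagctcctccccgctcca
The Sytl5 window holds no TEAD core and is 35.2% G or C. The Sytl4 window holds 1, whose first base lies 238 bases before the start, and is 53.2% G or C. Of 8 windows examined for 7 of the 10 genes, that of Sytl4 alone had the TEAD core, against 12.6% of all 32851 windows of this length. No window was examined for Sytl2, Rab27b or Unc13d. The 2 sequences shown thus include the only one with the core and do not stand for the other windows. The half-site bound by NR5A1 (AAGGTCA, or TGACCTT on the other strand) was in 0 of the 8 windows, against 4.1% of all windows. The 2 motifs share no site. These are matches of letters in a short window and say nothing on binding elsewhere.

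The profile of Sytl5 over the 6 animals was also compared with other genes. After each gene's log2 values were centred on their own mean, the root mean square distance from Sytl5 was computed for 9343 genes above the background probe sets' highest mean of 7.20, with a median of 0.83 log2 units. The 5 nearest were Tgfb2, a ligand of the TGF-beta family (0.17), Bcam, a laminin-binding surface protein (0.19), Scrn1, the cytosolic protein secernin-1 (0.19), Adh7, an alcohol dehydrogenase that also acts on retinol (0.19), and Tcf21, a transcription factor of mesenchymal cells (0.20). Bcam, for example, had log2 signals of 13.92, 14.01 and 13.46 in mutants and 12.69, 12.42 and 12.56 in controls. All 5 separated the groups, as likeness to Sytl5 requires. The paralogs lay at 0.91 for Sytl1, 0.66 for Sytl2, 0.82 for Sytl3 and 0.92 for Sytl4, and Rab27a was farther, at 1.11. Sytl1, Sytl3 and Sytl4 are dimmer than the genes behind the median of 0.83. Any gene that does not change lies far from Sytl5, which was chosen for its change. These distances therefore add nothing on the dim paralogs.

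**Figure D2:**
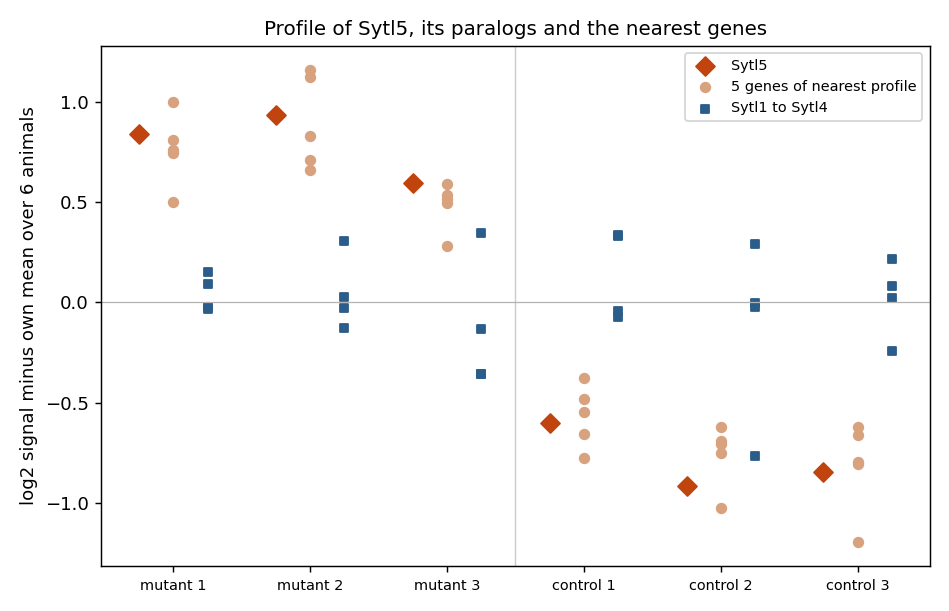
Log2 signal minus each gene's own mean over the 6 animals (vertical axis), by animal, for Sytl5 (diamonds), the 5 genes of nearest profile (circles) and Sytl1 to Sytl4 (squares). Sytl5 and its nearest genes lie above 0 in the mutants and below 0 in the controls, whereas the paralogs lie around 0 in both groups, Sytl2 in control 2 being the lowest of them.

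Neither Rab27 gene passed the test. Rab27a, the isoform that works on melanosomes, lytic granules and dense-core granules, had log2 signals of 10.78, 10.58 and 10.67 in mutants and 10.99, 11.80 and 10.67 in controls. Control 2 stood above the other 5 animals, and control 3 lay within the mutants. The difference was -0.48 log2 units (SE 0.27, 95% interval -1.10 to 0.14, limma adjusted p = 0.605), and -0.155 without control 2. Rab27b, the close homolog abundant in platelets and secretory cells, measured 6.28, 6.47 and 6.23 in mutants and 6.55, 6.29 and 6.25 in controls, with a difference of -0.04 (95% interval -0.40 to 0.32, limma adjusted p = 0.96).

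Chromaffin markers had the same high animal as Rab27a. All 10 measured markers were highest in control 2, whereas that animal was highest for 17.1% of all probe sets. Their mean log2 signal was 12.68, 12.59 and 12.68 in mutants and 12.82, 13.59 and 12.57 in controls. Pnmt, which makes adrenaline from noradrenaline, measured 11.64, 11.82 and 12.38 in mutants and 12.18, 13.26 and 12.06 in controls. Th, the first enzyme of catecholamine synthesis, measured 15.88 ± 0.17 in mutants and 16.13 ± 0.49 in controls (SD, n = 3 each). With the chromaffin list mean as a covariate the Rab27a difference was -0.0959, that of Sytl2, which was lowest in control 2, was 0.0819, and that of Sytl5 was 1.52.

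**Figure D3:**
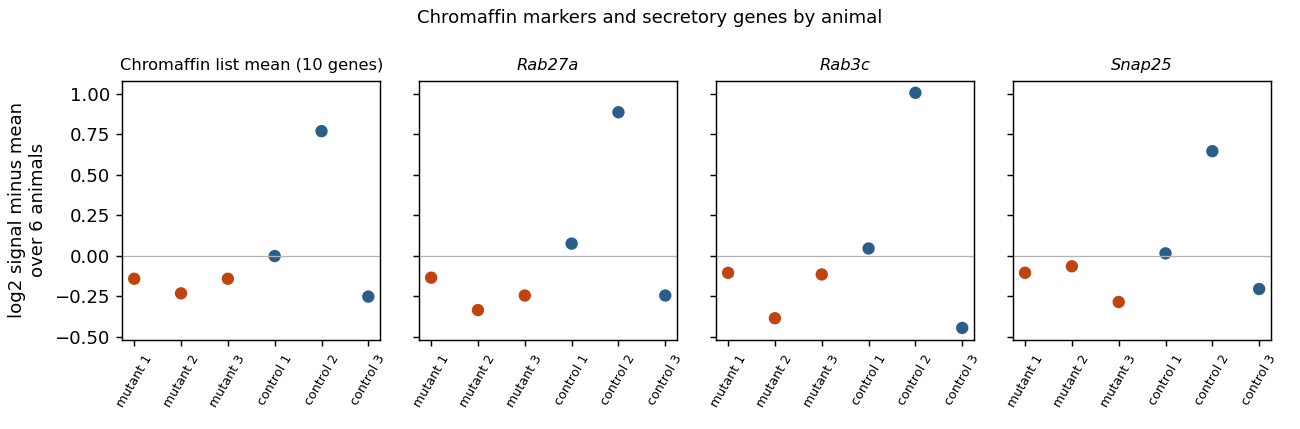
Log2 signal minus the mean over the 6 animals (vertical axis) for the mean of 10 chromaffin markers and for Rab27a, Rab3c and Snap25, in mutants (orange, left) and controls (blue, right). Control 2 is the highest animal in each panel, at 13.59 for the marker mean and 11.80 for Rab27a before centring. Not every secretory gene had this order, Rab3a (not shown) being highest in mutant 3.

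The Slac2 genes and Unc13d were within the background range. Myrip, whose protein MyRIP (Slac2-c) joins Rab27a to myosin motors and actin, had log2 signals of 5.42, 4.81 and 4.85 in mutants and 4.40, 5.05 and 4.16 in controls, with control 2 above mutants 2 and 3. Its difference of 0.49 (95% interval -0.12 to 1.10) had the smallest adjusted p of the 9 relatives (limma adjusted p = 0.582). It was 0.744 without control 2 and 0.293 without mutant 1. Exph5, which encodes exophilin-5 (Slac2-b), measured 3.55, 3.46 and 3.73 in mutants and 3.50, 3.96 and 3.15 in controls, and the controls enclosed the mutants (difference 0.04, 95% interval -0.45 to 0.54, limma adjusted p = 0.967). Unc13d encodes Munc13-4, which primes lytic granules of T and NK lymphocytes for release. It measured 5.74, 4.58 and 5.10 in mutants and 5.41, 4.88 and 4.66 in controls, and varied more within each group than between them (difference 0.16, 95% interval -0.55 to 0.87, limma adjusted p = 0.906). The lymphocyte markers beside it had mean log2 signals of 5.27 to 5.71 in mutants and 5.26 to 5.45 in controls, and those of mast cells, another type that uses Munc13-4, 5.64 to 5.99 in mutants and 5.99 to 6.21 in controls.

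**Figure D4:**
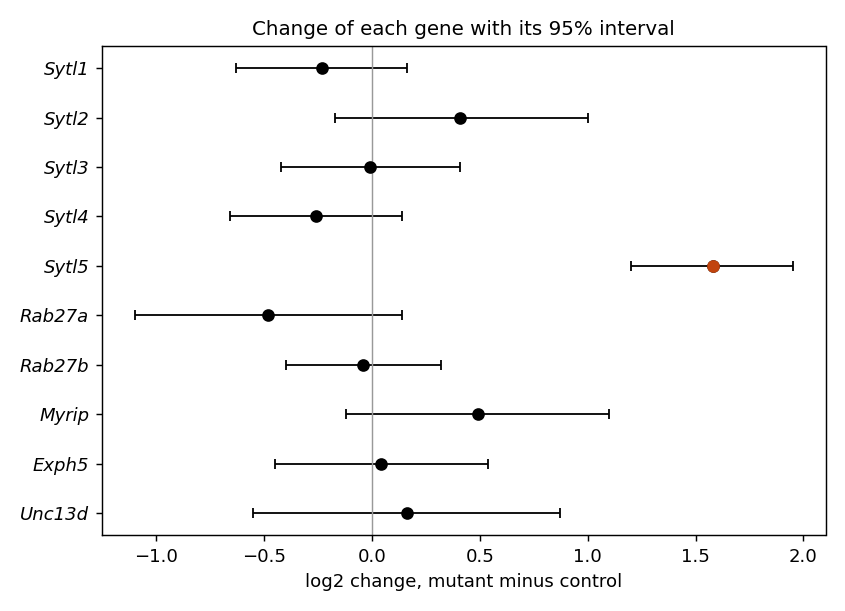
Log2 change, mutant minus control (horizontal axis), of the 10 genes with the 95% interval of the limma fit. The interval of Sytl5 (orange), the gene chosen for its change, runs from 1.20 to 1.95, and the intervals of the other 9 genes all include 0.

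As a group the 9 relatives of Sytl5 split evenly in direction. Of these, 4 were higher and 5 lower in mutants, from -0.48 for Rab27a to 0.49 for Myrip, with a median log2 change of -0.006, against -0.011 over all 22206 probe sets. None passed an adjusted p of 0.05 in the limma fit (0.0721% of all probe sets did), and 0 of the 9 had an unadjusted p under 0.05, which 10.4% of all probe sets had. In 0 of the 9 were the groups apart, where they were for 16.4% of all probe sets. The upper ends of their 95% intervals reached from 0.14 to 1.10 log2 units, below the Sytl5 difference of 1.58, but Sytl5 was chosen for its change. Intervals this wide do not show that the genes were equal in both groups. For the 7 within the background range, a difference would also be compressed towards 0.

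Genes that work around Rab27 and in docking and fusion were taken from 7 lists with 75 genes, of which 70 were measured and 28 lay within the background range in every animal. The limma fit called 0 of the 70 in either direction at an adjusted p under 0.05, where 0.0721% of all probe sets were called. An unadjusted p under 0.05 was found for 6 of the 70, all lower in mutants, and for 10.4% of all probe sets in either direction. Mutants were all above the controls for 4 of the 70 and all below them for 6, and in either direction this held for 16.4% of all probe sets. Of the 70, 25 were higher and 45 lower, with a median log2 change of -0.08. Over all 22206 probe sets, 10666 were higher and 11540 lower, with a median of -0.011. Control 2 was the highest animal for 20 of the 70 (28.6%) and control 1 for 17 (24.3%), against 17.1% and 18.4% of all probe sets.

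Regulators of the Rab27 cycle had a median log2 change of 0.01 over 9 genes. Madd, the exchange factor that loads Rab27 and Rab3 with GTP, measured 5.22, 5.14 and 5.27 in mutants and 5.60, 5.62 and 5.62 in controls, groups that were apart although within the background range (log2 change -0.41, SE 0.13, limma adjusted p = 0.358). Tbc1d10c, of a family of GTPase-activating proteins that includes ones acting on Rab27, had a log2 change of 0.29 (SE 0.16), and Rab3gap1, a subunit of the Rab3 GTPase-activating complex, one of 0.20 (SE 0.16).

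Rims4, a short member of the RIM family of secretion scaffolds, had the smallest adjusted p of the 70. It measured 12.57, 12.44 and 12.41 in mutants and 13.44, 13.11 and 13.28 in controls. All mutants were below all controls, and the log2 change was -0.80 (SE 0.15, limma adjusted p = 0.114). It passed at 0.0479 when dim probe sets were left out and at 0.0134 with a trended robust variance. Rims4 passed in no other setting, with a limma adjusted p of 0.257 with the replicate block and of 0.21 to 0.396 without 1 animal. In the same list of 11 other effectors and motors, with a median log2 change of 0.03, Rph3al, the Rab27 effector Noc2, had a log2 change of -0.44 (SE 0.19), and Myo5a, the motor that melanophilin links to Rab27a on melanosomes, one of 0.27 (SE 0.16).

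The 4 Rab3 genes, GTPases that share effectors with Rab27, had a median log2 change of -0.20. Rab3d was apart between groups, at 9.27, 9.49 and 9.27 in mutants and 9.51, 9.67 and 9.61 in controls (log2 change -0.25, SE 0.14, limma adjusted p = 0.608). Rab3c followed the chromaffin pattern, at 10.32, 10.04 and 10.31 in mutants and 10.47, 11.43 and 9.98 in controls, and its log2 change of -0.40 (SE 0.33) was 3.5e-05 without control 2. Rab3b was likewise highest in control 2, at 12.55, with a log2 change of -0.15 (SE 0.35) and of 0.232 without that animal. Rab3a was instead highest in mutant 3, at 12.14, against 11.35 in control 2. The 4 Munc13 relatives of Unc13d were all within the background range, with a median log2 change of -0.38. Unc13b measured 6.84, 6.52 and 6.10 in mutants and 6.92, 7.03 and 6.95 in controls (log2 change -0.48, SE 0.20, limma adjusted p = 0.457), Unc13c had a log2 change of -0.43 (SE 0.18) and Unc13a one of -0.33 (SE 0.22).

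Synaptotagmins, several of which are the calcium sensors of granule release, had a median log2 change of -0.13 over 18 genes with their Doc2 relatives. Syt14 measured 9.69, 10.05 and 9.83 in mutants and 10.49, 10.19 and 10.09 in controls, with the groups apart (log2 change -0.40, SE 0.17, limma adjusted p = 0.475). Syt12 was also apart, with a log2 change of -0.31 (SE 0.16), and Syt6 had one of 0.64 (SE 0.33) within the background range, with 4.81 in mutant 2 alone above 4. SNARE and Munc18 genes, which carry out or guide membrane fusion, had a median of -0.09 over 15 genes. Vamp8, a vesicle SNARE of granule release in many secretory cells, had mean log2 signals of 9.25 ± 0.33 in mutants and 9.79 ± 0.30 in controls (SD, n = 3 each), and the groups overlapped (log2 change -0.54, SE 0.22, limma adjusted p = 0.456). Snap25, the plasma membrane SNARE of neurons and chromaffin cells, was highest in control 2 at 12.15 (log2 change -0.30, SE 0.23), and Stx4a, syntaxin-4, had a log2 change of -0.23 (SE 0.17). The exocyst, a separate tethering complex at the plasma membrane, had the narrowest range of log2 changes of the 7 lists, from -0.11 to 0.08 over 9 subunits, Exoc8 (-0.11), Exoc6 (-0.11) and Exoc5 (0.08) having its smallest p-values.

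**Figure D5:**
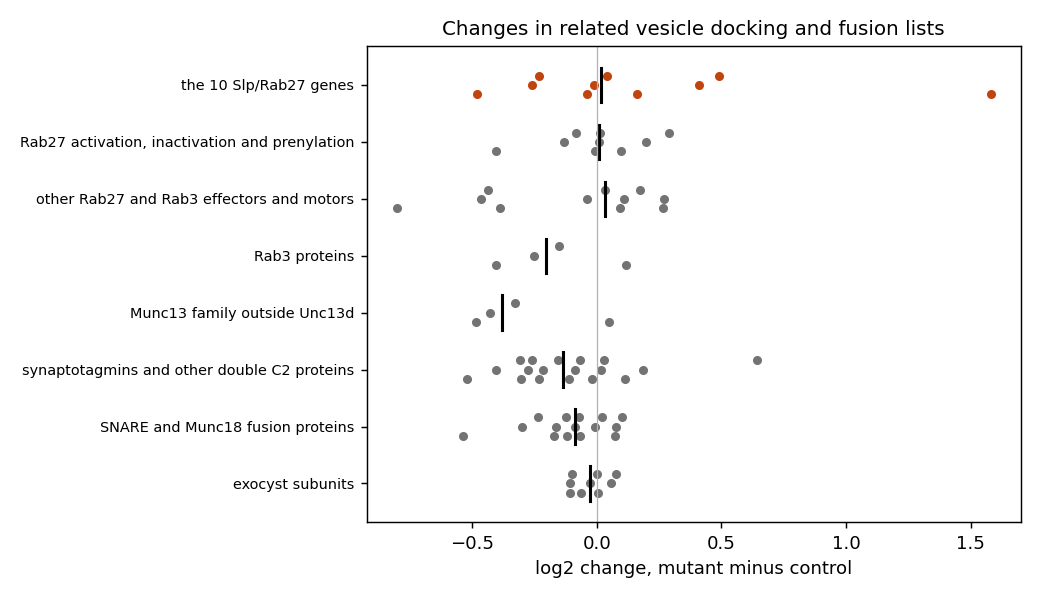
Log2 change, mutant minus control (horizontal axis), of the 10 Slp/Rab27 genes (orange, top row) and of the 70 measured genes of the 7 related lists (grey), 1 point per gene, with a vertical bar at each median; points are spread vertically for legibility. Sytl5, at 1.58, lies to the right of all other points, the next being Syt6 at 0.64, and Rims4 is the leftmost at -0.80.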

How the data were processed

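The deposited table holds 1 column of log2 signals for each animal; that the scale is log2 was inferred from the values. Per the submitters' processing notes, Transcriptome Analysis Console 4.0 was used; how background was corrected, probes summarised and arrays normalized was not given in the sources used here. A step that equalises arrays would mask a shift common to most genes. Control probe sets (6640) were left out, and 22206 were tested, of which 19572 have 1 gene symbol in the platform annotation, all found in RefSeq's gene table for GRCm38.p6.

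Mutant minus control was fitted with limma 3.58.1 in R 4.3.3 (lmFit, eBayes, no covariates, no filter), two-sided, with Benjamini-Hochberg adjustment over all probe sets. SEs and 95% intervals are those of the moderated fit. The procedure was tested on simulated data. There it called 43 of 100 changes of 1 log2 unit and 86 of 100 of 2 log2 units, with 10 false calls. Animals are separate mice, and their number limits the precision.

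The genes, lists and alternatives were chosen with earlier results of these data known. Genes named are the 10, up to 3 genes of smallest p in each related list, the 5 nearest profiles, and Th, Pnmt, Star, Adipoq, Pecam1, Ptprc and Stk4, with Stk3 only where measured. Cpa3 and Kit were named in addition, because the mast cell list mean joined opposite changes. Each gene had 1 probe set, so no second one could be compared.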

Additional observations from a re-analysis of the deposited data

How the results depend on the processing

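The Sytl5 difference lay between 1.51 and 1.68 log2 units in every setting run, but the call that selected it, which is no independent test, did not hold in all of them. It was kept under quantile normalization, a common array median, either filter on probe sets, a trended robust variance and array weights, and lost with a covariate or block. The differences there were 1.60 with the intron control signal, 1.59 with the adipocyte list, 1.52 with the chromaffin list and 1.58 with the replicate number as a block, so 0 of the 10 genes were called higher in each of these. These fits leave fewer degrees of freedom. Leaving out 1 animal gave differences of 1.51 to 1.68 and 0 or 1 called gene. Sytl5 against its paralogs gave 1.56 to 1.64 without 1 animal and 1.16 against Sytl2 alone.

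Among genes that were not called, some signs turned. Sytl3 was 0.0292 with the intron covariate, 0.168 with the chromaffin covariate and -0.128 to 0.139 without 1 animal. Rab27b was 0.0127 with the adipocyte covariate and -0.112 to 0.0555 without 1 animal, as Exph5 was -0.150 to 0.257 and Unc13d -0.144 to 0.437. The chromaffin covariate turned Rab3c (0.0841), Rab3b (0.317), Th (0.0614) and Star (0.00179), and the adipocyte one Star (0.00674). Without 1 animal Rab3c ranged from -0.728 to 3.5e-05, Rab3b from -0.495 to 0.232, Exoc5 from -0.018 to 0.175, Th from -0.485 to 0.00328 and Star from -0.0461 to 0.0266. The cause of these turns was not tested.

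Of the related genes 1, Rims4, was called lower without dim probe sets and with the trended robust variance, and 6 were lower at an unadjusted p under 0.05. Over the whole array 16 probe sets were called (12 higher, 4 lower), against 38 with quantile normalization, 32 with a common array median (20 higher, 12 lower), 92 without dim probe sets, 41 with only probe sets that have 1 gene symbol, 175 with the trended robust variance and 48 with array weights. There were 1 with the block, 8 with the intron, 2 with the adipocyte and 1 with the chromaffin covariate, and 1 to 15 without 1 animal.

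Same-numbered animals did not deviate together (correlations across probe sets of -0.09, 0.082 and -0.07), and 1 of 3 mutants correlated best with the control of its own number. With 3 animals per group, these values cannot settle whether the numbers mark pairs. Apart from that of Sytl5, the block changed no call among the 10 genes. Dim signals limit what can be seen for 7 of the 10 genes, and 3 animals per group limit the rest. No second probe set existed for any of the 10, so that alternative was not run.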
